A study of Mus musculus with 75 samples.

Results

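Netrins and semaphorins are extracellular guidance cues that steer growing axons, migrating cells and vessel sprouts, and the 10 genes described here encode such cues and their receptors. The ligand genes are the netrin genes Ntn1 and Ntn4, the class 3 semaphorin genes Sema3a, Sema3c and Sema3e, and Sema7a. The receptor genes are Unc5b, Nrp1, Nrp2 and Plxnc1. They were taken by symbol from the 45706 gene entries of the 2 deposited count tables, of which 45143 had a symbol. All 10 passed the filter on low counts, which kept 13665 genes. The genes were chosen by their measured level, with earlier results on the same libraries in view: Ntn1 for its low level at rest without RelA, and Sema7a for its rise under TNF without RelA. Values that involve cells without RelA, and for Ntn1 and Sema7a also those that involve wild-type RelA, are therefore given as a description with no test. The choice used no threshold.

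The cells were mouse embryonic fibroblasts of the C57BL/6 strain, from embryos that, per the labels, lacked p53 and the NF-kB subunits c-Rel and RelA, a background that all groups share. Reads of these genes were still counted: over the 75 libraries Trp53 had 25.9 to 80.3 CPM (reads scaled to a common library total) and Rel 16.3 to 51.1 CPM. The deleted part of each gene is not given in the sources used here, so these reads do not check the labels. A pBABE-puro retrovirus, empty (EV) or encoding RelA, was put into them, and the RelA made is that of the vector, not of the gene's own promoter. The constructs were RelA-WT, RelA-dTA1 and RelA-dTAD, named for loss of the transactivation domain TA1 or of the transactivation domains, with 2 libraries at each time, as had EV. With 1 library at each time there were RelA-DB and RelA-dCterm in the first set of libraries. The second set added 3 TA2 mutants that keep TA1 (RelA-TA2_S467A, RelA-TA2_CI and RelA-TA2_CI_S467A) and 2 that lack it (RelA-TA2_CI_S467A-dTA1 and RelA-TA2_CI-dTA1). Cells were held overnight in medium with 0.5% serum and stimulated with tumor necrosis factor (TNF) at 10 ng/ml. Polyadenylated RNA was sequenced before TNF and after 0.5, 1, 3 and 8 h. There were 75 libraries in 55 groups. Unstimulated cells were taken at 0 h alone, so a change under TNF includes whatever changes with time alone. The labels do not say whether a line was 1 clone, or whether replicates came from different cultures; the p-values reflect the scatter of these libraries and no more.

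RelA is a DNA-binding subunit of NF-kB that enters the nucleus after TNF and recruits the transcription machinery through its transactivation domains. The protein made from Ntn1 is a secreted, laminin-like cue read by DCC, neogenin and the UNC5 receptors, among them that of Unc5b. The protein of Ntn4 is a basement membrane netrin that binds laminin. Class 3 semaphorins are secreted and mostly act through a neuropilin paired with a plexin, while that of Sema3e binds plexin D1 directly. The protein of Sema7a is held on the membrane by a lipid anchor and is read by plexin C1, the product of Plxnc1, and by integrins. Neuropilins also serve as co-receptors for vascular endothelial growth factors. In fibroblasts and immune tissue the same cues are known for effects on adhesion, migration and inflammation.

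The first deposited set holds 30 libraries of 4422396 to 6915919 counted reads and the second 45 of 10440202 to 22908738, and each replicated group holds 1 library from each set. Levels below are CPM, a gene's reads scaled to a common library total after TMM correction, given for set 1 first and set 2 second. Rela, the gene put back, had 16.1 CPM ± 0.846 (SD, n = 2) in resting EV cells and 1308 ± 233 (SD, n = 2) in resting RelA-WT cells. Its level moved with TNF in the mutants: between 0 and 8 h it rose by 1.87 ± 0.35 (log2, SE) in RelA-dTAD (adjusted p = 1.13e-04) and by 0.93 ± 0.34 in RelA-dTA1 (adjusted p = 0.0378), reaching 5312 CPM ± 1987 (SD, n = 2) in RelA-dTAD against 1616 ± 219 (SD, n = 2) in RelA-WT. The 8 h results below come with this difference in Rela, and its part in them was not tested. All 10 fibroblast markers were expressed, at 35043 to 55034 CPM summed. Endothelial markers summed to 30.4 to 61.0 CPM with 2 of 8 past the filter (Kdr and Tek), neural and glial markers to 51.1 to 92.1 CPM with 4 of 8 past it, and macrophage markers to 1.60 to 6.02 CPM with 2 of 7 past it. Epithelial markers, 4 of 6 past the filter and mostly Krt19, summed to 17.4 to 21.8 CPM at rest and 70.2 to 90.1 CPM at 8 h in RelA-dTAD, and to 17.4 to 17.5 CPM at 8 h in RelA-WT. That rise ran beside those of Sema7a and Ntn4 described below, and its part in them was not tested. The defining genes Pecam1, Cdh5, Sox10, Rbfox3, Ptprc, Adgre1 and Krt5 stayed under 1 CPM in every library. In bulk RNA, fewer cells that express a gene and less RNA per cell cannot be told apart.

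Among the ligands, Ntn1 was the gene whose resting level followed the RelA construct. Ntn1 (ENSMUSG00000020902.10) lies on chromosome 11 of mm10 at chr11:68209364-68400823, on the minus strand. Before TNF it had 17.3 and 19.5 CPM in EV, 53.5 and 55.9 in RelA-WT, 36.8 and 47.9 in RelA-dTA1, and 21.7 and 20.5 in RelA-dTAD. Both RelA-dTAD libraries thus lay below both RelA-dTA1 libraries, near EV, and both RelA-dTA1 libraries lay below both RelA-WT libraries. The difference between EV and RelA-WT, which chose the gene, was −1.59 ± 0.16 (log2, SE). The difference between RelA-dTAD and RelA-dTA1, which the choice did not use, was −1.01 ± 0.16 (edgeR's quasi-likelihood test with Benjamini-Hochberg adjustment, adjusted p = 0.00865). Ntn1 was the 1 of the 10 genes called there, in a comparison in which 0.0293% of all genes, 4 in number, were called. Since RelA-dTAD lay near EV, whose low level chose the gene, this call is not independent of the choice. It is not read as an excess over that share. A replicate here is the 5 libraries of a construct in a set. With the second RelA-dTA1 replicate left out the difference was −0.81 (adjusted p = 0.0822). Without the first or the second RelA-dTAD replicate it was −1.07 (adjusted p = 0.181) or −0.95 (adjusted p = 0.740).

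The single libraries of the other mutants spread over the same range at rest. RelA-TA2_S467A had 52.5 CPM of Ntn1, RelA-TA2_CI 48.6 and RelA-TA2_CI_S467A 39.3, which is 0.939, 0.869 and 0.703 times RelA-WT of the same set. The mutants of TA2 that also lacked TA1 were lower, at 26.0 CPM in RelA-TA2_CI-dTA1 and 28.4 in RelA-TA2_CI_S467A-dTA1, 0.464 and 0.508 times RelA-WT. RelA-dCterm had 21.9 CPM and RelA-DB 17.5, 0.410 and 0.327 times RelA-WT. Resting Rela differed as well, at 524 CPM in RelA-dCterm and 647 in RelA-DB against 1143 in RelA-WT of set 1. In the TA2 mutants it was 1158 to 1443 CPM, against 1473 in RelA-WT of set 2. The part of Rela level in these values of Ntn1 was not tested. The order from high to low was thus RelA-WT, the TA2 mutants with TA1, RelA-dTA1, the TA2 mutants without TA1, and then RelA-dCterm, RelA-dTAD, EV and RelA-DB, with RelA-dTA1 overlapping the TA2 mutants that keep TA1 and the last 4 within 17.3 to 21.9 CPM. No replicate check exists for the 7 constructs with 1 library.

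Ntn1 rose late under TNF. It stayed at 50.6 to 54.5 CPM in RelA-WT at 0.5 and 1 h, then stood at 128 and 125 CPM at 3 h and at 230.0 and 219 CPM at 8 h, a change of 2.04 ± 0.16 (log2, SE; described, not tested). RelA-dTA1 cells went from 36.8 and 47.9 CPM to 73.3 and 86.0 at 3 h and to 152 and 147 at 8 h. All 4 of these later libraries lay above the resting ones. The rise was 0.92 ± 0.16 at 3 h (adjusted p = 1.32e-04) and 1.82 ± 0.16 at 8 h (adjusted p = 4.36e-09). In RelA-dTAD the levels at 8 h were 33.2 and 42.7 CPM, a smaller rise of 0.88 ± 0.16 (adjusted p = 1.10e-04) that was 0.62 (adjusted p = 0.0688) with the second RelA-dTAD replicate left out. EV cells had 36.1 and 47.6 CPM at 8 h. The TNF responses of RelA-dTAD and RelA-dTA1 at 8 h differed by −0.94 ± 0.22 (adjusted p = 0.0106), and by −0.75 (adjusted p = 0.217) without the first RelA-dTAD replicate. At 8 h the single libraries kept the order seen at rest: 199 CPM in RelA-TA2_S467A, 173 in RelA-TA2_CI, 151 in RelA-TA2_CI_S467A, 72.2 in RelA-TA2_CI_S467A-dTA1, 66.8 in RelA-TA2_CI-dTA1, 40.6 in RelA-DB and 32.3 in RelA-dCterm, with the last 2 exchanged.

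**Figure D1:**
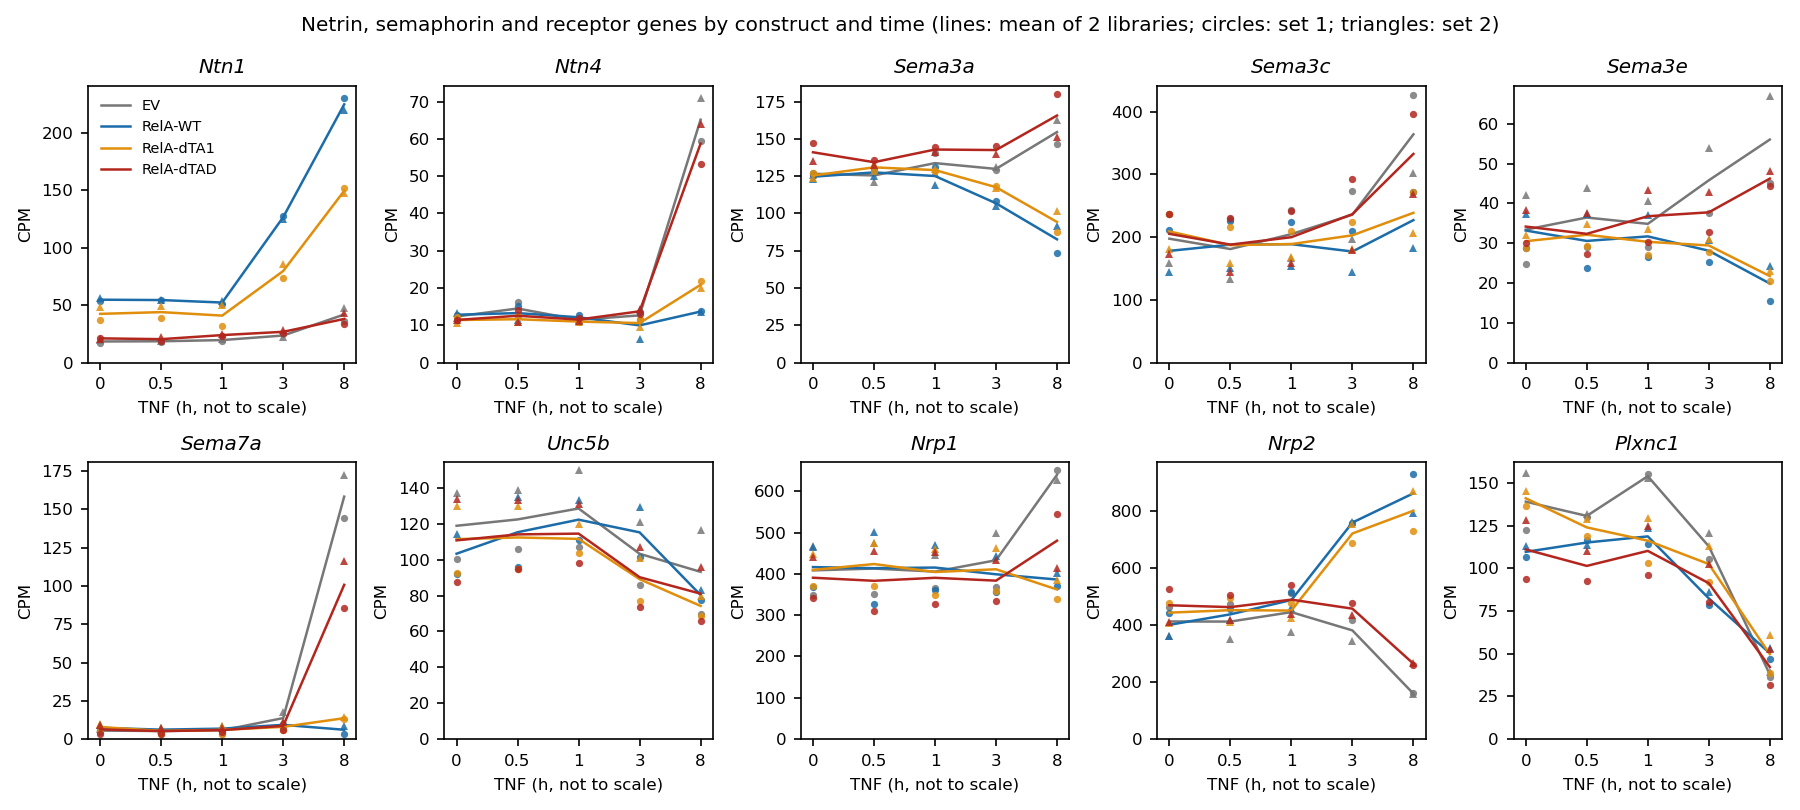
Level of the 10 genes in CPM (vertical axes, from 0) against time under TNF in hours (horizontal axes, categories not to scale) in RelA-WT, RelA-dTA1, RelA-dTAD and EV. Lines join the means of 2 libraries, circles are set 1 and triangles set 2. Ntn1 differs by construct before TNF and further from 3 h on, Nrp2 parts by construct from 3 h on, and Ntn4 and Sema7a stay low until 3 h and are high at 8 h in EV and RelA-dTAD.

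Ntn4 (ENSMUSG00000020019.4, chr10:93640681-93747207, plus strand) showed no such spread at rest. Over the 15 resting libraries it ranged from 10.3 to 15.8 CPM with a median of 12.0. After 8 h of TNF it had 13.8 and 13.6 CPM in RelA-WT, 21.8 and 19.9 in RelA-dTA1, 53.4 and 64.1 in RelA-dTAD, and 59.3 and 70.9 in EV. The RelA-WT libraries stayed within the resting range, the RelA-dTA1 libraries lay above it, and those of RelA-dTAD lay more than 2 times above every RelA-dTA1 library and overlapped EV. The change was 0.09 ± 0.22 in RelA-WT (adjusted p = 0.810), 0.89 ± 0.22 in RelA-dTA1 (adjusted p = 0.00259) and 2.37 ± 0.22 in RelA-dTAD (adjusted p = 4.10e-09). The call in RelA-dTA1 was lost without either of its replicates (0.92, adjusted p = 0.0653, and 0.87, adjusted p = 0.0814). The response of RelA-dTAD exceeded that of RelA-WT by 2.28 ± 0.31 (adjusted p = 1.76e-05) and that of RelA-dTA1 by 1.49 ± 0.30 (adjusted p = 0.00308). The latter was 1.5 (adjusted p = 0.103) without the second RelA-dTA1 replicate and 1.33 (adjusted p = 0.0898) without the second RelA-dTAD replicate. Among single libraries at 8 h, RelA-DB had 81.4 CPM, RelA-dCterm 58.6, RelA-TA2_CI_S467A-dTA1 41.1 and RelA-TA2_CI-dTA1 40.7, while the 3 TA2 mutants with TA1 had 13.4 to 20.6.

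Sema7a (ENSMUSG00000038264.7, chr9:57940113-57962864, plus strand) had the largest rise of the 10 genes, in EV and RelA-dTAD. RefSeq's table for GRCm38.p6 holds a window around the start site, from 250 bases before it to 50 after, for 9 of the 10 genes; Ntn1 is the other. A stretch before the start site is shown for Sema7a and for Nrp2, the gene with the highest rise and the gene that rose in some constructs and fell in others. For Sema7a it is the 250 bases before the RefSeq start, and for Nrp2 the first 218 bases of the window, which end where the gene entry of the count tables begins, short of the RefSeq start. Capitals mark GC boxes (GGGCGG or its complement CCGCCC on the other strand, overlapping matches counted).
Sema7a, chr9:57939862-57940111, plus strand: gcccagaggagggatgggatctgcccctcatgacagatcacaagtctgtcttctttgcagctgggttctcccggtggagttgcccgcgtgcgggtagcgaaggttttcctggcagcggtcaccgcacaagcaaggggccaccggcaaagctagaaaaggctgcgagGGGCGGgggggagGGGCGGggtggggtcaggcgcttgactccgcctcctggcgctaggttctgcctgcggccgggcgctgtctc
Nrp2, chr1:62703067-62703284, plus strand: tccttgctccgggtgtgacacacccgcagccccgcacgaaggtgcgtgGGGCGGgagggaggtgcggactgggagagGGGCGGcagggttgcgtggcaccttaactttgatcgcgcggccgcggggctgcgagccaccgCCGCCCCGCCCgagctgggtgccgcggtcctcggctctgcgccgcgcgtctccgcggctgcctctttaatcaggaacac
The Sema7a stretch holds 2 GC boxes. The Nrp2 stretch holds 4 of the 5 in the Nrp2 window. A GC box was found in 8 of the 9 windows, that of Sema3a being the other, and in 35.7% of 32851 RefSeq promoter windows of the same length. The windows of Sema3a, Ntn4 and Sema3c begin inside their gene entries of the count tables. That of Sema3a begins at chr5:13396534, far inside an entry that begins at chr5:13125414. A kB motif was found in 0 of the 9 windows, against 8.46% of all windows. An AP-1 motif (TGANTCA, on either strand) was also found in 0 of the 9, against 7.81% of all windows. These matches describe letters in a short window and no more.

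At rest Sema7a was low everywhere, at 3.19 to 9.90 CPM over the 15 libraries with a median of 6.27, resting on 16 to 197 reads. After 8 h it had 145 and 172 CPM in EV and 3.59 and 8.57 in RelA-WT, the pair of groups that chose it. RelA-dTA1 had 13.2 and 14.1 CPM and RelA-dTAD 85.4 and 116. Both RelA-dTAD libraries lay far above both RelA-dTA1 libraries and below both EV libraries, and the RelA-dTA1 libraries lay above their own resting values of 5.86 and 9.90 CPM. In RelA-dTAD the change was 3.88 ± 0.48 (log2, SE; adjusted p = 4.56e-07), or 26.6 times in set 1 and 12.3 times in set 2. In RelA-dTA1 it was 0.75 ± 0.47 (adjusted p = 0.231), and 0.69 ± 0.22 (adjusted p = 0.00910) with the set as a block. The 2 responses differed by 3.13 ± 0.66 (adjusted p = 0.00398), and by 2.67 (adjusted p = 0.170) without the second RelA-dTA1 replicate. Most of the rise came between 3 and 8 h. At 3 h RelA-dTAD had 6.08 and 11.1 CPM, against 3.21 and 9.42 at rest. EV had 9.90 and 17.5 CPM at 3 h, already 2.24 and 2.64 times its resting 4.43 and 6.65.

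Single libraries placed Sema7a on the same scale at 8 h. RelA-DB had 157 CPM and RelA-dCterm 138, 43.6 and 38.5 times RelA-WT of set 1, which was itself at 3.59 CPM. RelA-TA2_CI-dTA1 had 66.4 CPM and RelA-TA2_CI_S467A-dTA1 52.5, 7.75 and 6.12 times RelA-WT of set 2. The TA2 mutants that keep TA1 had 14.1 CPM (RelA-TA2_CI_S467A), 10.4 (RelA-TA2_CI) and 8.10 (RelA-TA2_S467A), close to RelA-dTA1 and RelA-WT. Mutants of TA2 together with TA1 thus lay between RelA-dTA1 and RelA-dTAD for Sema7a and Ntn4, as they did for Ntn1 in the other direction.

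**Figure D2:**
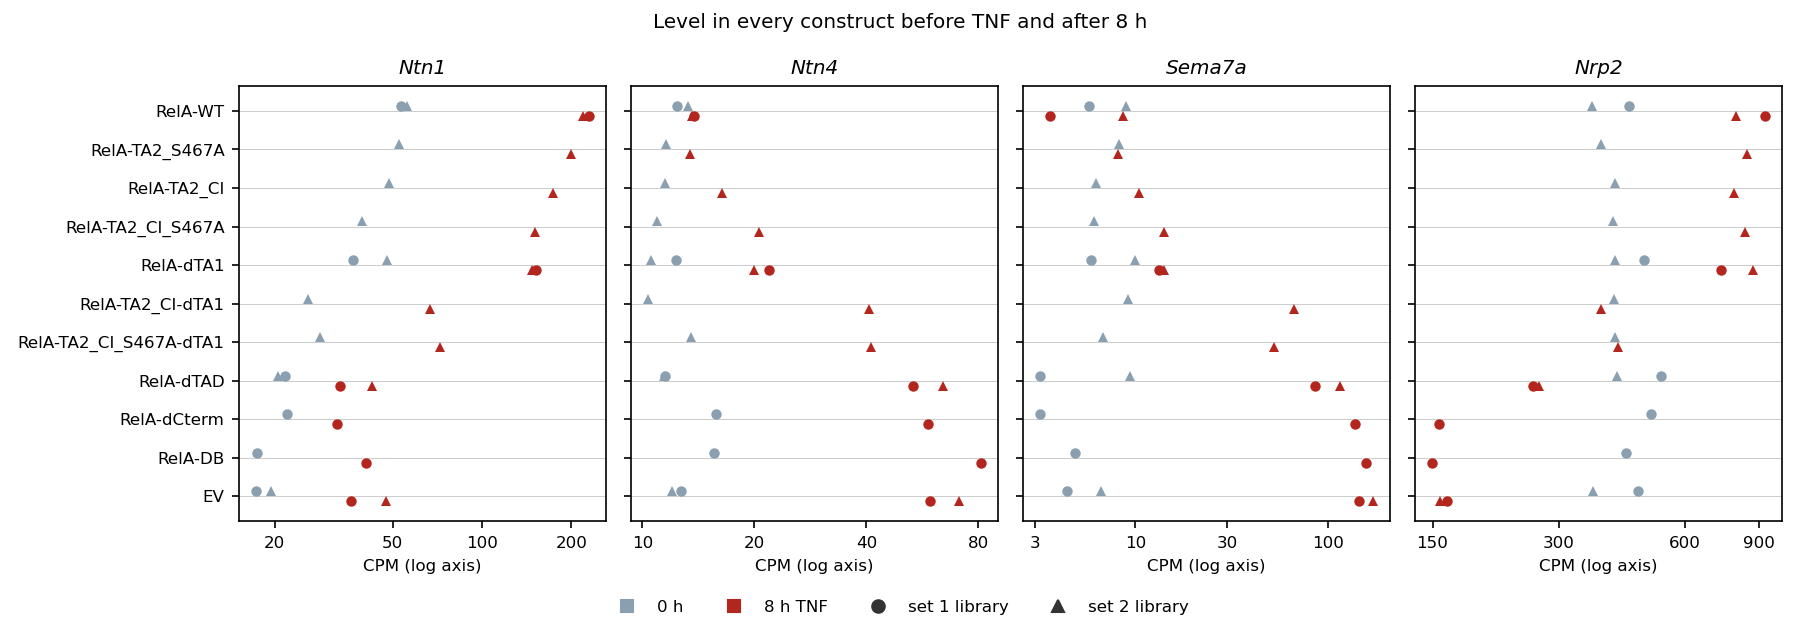
CPM on a log axis (horizontal) of Ntn1, Ntn4, Sema7a and Nrp2 in all 11 constructs (vertical axis), before TNF (grey) and after 8 h (red), with circles for set 1 libraries and triangles for set 2. At 8 h Sema7a runs from 3.59 CPM in a RelA-WT library to 172 in an EV library, and Nrp2 from 150 CPM in RelA-DB to 931 in a RelA-WT library.

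The class 3 semaphorin genes moved by smaller amounts. Sema3a (ENSMUSG00000028883.15, chr5:13125414-13602565, plus strand), whose product repels growing axons, had 121 to 147 CPM in the 15 resting libraries. At 8 h it had 73.7 and 91.7 CPM in RelA-WT, 87.3 and 101 in RelA-dTA1, 180.2 and 151 in RelA-dTAD, and 147 and 162 in EV. The libraries of RelA-WT and RelA-dTA1 all fell below the resting range and those of RelA-dTAD lay above it. It fell by 0.58 ± 0.09 in RelA-WT (adjusted p = 3.01e-05) and by 0.40 ± 0.09 in RelA-dTA1 (adjusted p = 0.00139), the latter by 0.29 (adjusted p = 0.234) without the first RelA-dTA1 replicate. The change of 0.24 ± 0.09 in RelA-dTAD (adjusted p = 0.0323) was 0.06 (adjusted p = 0.584) with upper quartile scaling, 0.23 (adjusted p = 0.219) with no filter on low counts, 0.22 (adjusted p = 0.0556) with all 75 libraries in the fit, and 0.17 (adjusted p = 0.331) or 0.29 (adjusted p = 0.0796) without its first or second replicate. The responses of RelA-dTAD and RelA-WT differed by 0.82 ± 0.13 (adjusted p = 9.61e-05). Those of RelA-dTAD and RelA-dTA1 differed by 0.63 ± 0.13 (adjusted p = 0.00263), by 0.52 (adjusted p = 0.125) without the first RelA-dTA1 replicate and by 0.57 (adjusted p = 0.0622) without the first RelA-dTAD replicate. Single libraries had 137 CPM in RelA-DB, 147 in RelA-dCterm, 139 and 144 in the TA2 mutants without TA1, and 86.5 to 98.2 in those with it.

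Sema3e (ENSMUSG00000063531.7, chr5:14025276-14256689, plus strand) followed the same split at a lower level, with 24.8 to 42.1 CPM at rest. At 8 h it had 15.6 and 24.2 CPM in RelA-WT, 20.4 and 23.1 in RelA-dTA1, 44.3 and 48.1 in RelA-dTAD, and 45.2 and 66.9 in EV. Every RelA-dTAD library lay above every RelA-WT and RelA-dTA1 library. Set 2 lay above set 1 in each of these groups, and the block by set changed the calls. The change in RelA-WT was −0.71 ± 0.29 (adjusted p = 0.0679; blocked, −0.71, adjusted p = 2.44e-05). In RelA-dTA1 it was −0.47 ± 0.28 (adjusted p = 0.211; blocked, −0.50, adjusted p = 9.21e-04), and in RelA-dTAD 0.44 ± 0.28 (adjusted p = 0.203; blocked, 0.42, adjusted p = 0.00164). The difference between the responses of RelA-dTAD and RelA-WT was 1.15 ± 0.40 (adjusted p = 0.0603; blocked, 1.14, adjusted p = 3.87e-06; DESeq2, adjusted p = 0.0368), and that between RelA-dTAD and RelA-dTA1 was 0.91 ± 0.40 (adjusted p = 0.212; blocked, 0.93, adjusted p = 1.06e-04). The unblocked test thus called none of these and the blocked test all 5.

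Sema3c (ENSMUSG00000028780.11, chr5:17574281-17730268, plus strand) was higher in set 1 than in set 2 in each replicated group. It went from 238 and 173 CPM to 397 and 269 in RelA-dTAD, from 212 and 144 to 271 and 183 in RelA-WT, from 237 and 181 to 271 and 206 in RelA-dTA1, and from 237 and 158 to 426 and 302 in EV. Within each set the 8 h library was the higher one in all 4 constructs. The unblocked change in RelA-dTAD was 0.70 ± 0.37 (adjusted p = 0.121) and the blocked one 0.69 ± 0.08 (adjusted p = 1.56e-09). Blocked changes were 0.35 in RelA-WT (adjusted p = 4.10e-04) and 0.20 in RelA-dTA1 (adjusted p = 0.0278), against unblocked adjusted p of 0.515 and 0.710. The blocked response of RelA-dTAD exceeded that of RelA-dTA1 by 0.49 (adjusted p = 0.00130) and that of RelA-WT by 0.34 (adjusted p = 0.0202), with unblocked adjusted p of 0.732 and 0.774.

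Of the receptor genes, Nrp2 took opposite directions in different constructs. Nrp2 (ENSMUSG00000025969.13, chr1:62703285-62818695, plus strand), the neuropilin that also serves lymphatic growth factors, had 361 to 526 CPM in the 15 resting libraries. At 3 h it had 756 and 762 CPM in RelA-WT and 688 and 753 in RelA-dTA1, against 479 and 436 in RelA-dTAD and 419 and 343 in EV. At 8 h it had 931 and 792 CPM in RelA-WT, 729.8 and 871 in RelA-dTA1, 260.0 and 268 in RelA-dTAD, and 162 and 156 in EV. The libraries of RelA-WT and RelA-dTA1 overlapped each other and all lay above the resting range, and those of RelA-dTAD and EV all lay below it, RelA-dTAD above EV. It rose by 0.94 ± 0.18 at 3 h (adjusted p = 6.05e-04) and 1.11 ± 0.18 at 8 h (adjusted p = 5.55e-05) in RelA-WT, and by 0.72 ± 0.18 at 3 h (adjusted p = 0.00761) and 0.87 ± 0.18 at 8 h (adjusted p = 6.56e-04) in RelA-dTA1. In RelA-dTAD it fell by 0.82 ± 0.18 at 8 h (adjusted p = 6.81e-04). The responses of RelA-dTAD at 8 h differed from those of RelA-WT by −1.94 ± 0.26 (adjusted p = 1.55e-05) and from those of RelA-dTA1 by −1.69 ± 0.26 (adjusted p = 1.80e-04), and these 2 calls held without any 1 replicate of either construct.

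At 3 h the response of Nrp2 in RelA-dTAD differed from that in RelA-WT by −0.98 ± 0.26 (adjusted p = 0.0326), a call lost without any 1 of the 4 replicates: adjusted p was 0.119 without the first and 0.365 without the second RelA-WT replicate, and 0.367 and 0.137 without the first and the second RelA-dTAD replicate. Against RelA-dTA1 at 3 h it differed by −0.76 (adjusted p = 0.226; blocked, −0.77, adjusted p = 0.00490). The rise in RelA-dTA1 at 3 h was lost without either of its replicates (0.91, adjusted p = 0.0671, and 0.54, adjusted p = 0.332), and that at 8 h without the second (0.65, adjusted p = 0.0952). The rise in RelA-WT at 3 h was 0.81 (adjusted p = 0.0736) without its second replicate, and the fall in RelA-dTAD at 8 h was −0.61 (adjusted p = 0.0857) without the first. Single libraries at 8 h had 844 CPM in RelA-TA2_S467A, 832 in RelA-TA2_CI_S467A and 783 in RelA-TA2_CI, 1.06, 1.05 and 0.988 times RelA-WT. RelA-TA2_CI_S467A-dTA1 and RelA-TA2_CI-dTA1 had 415 and 378 CPM, 1.01 and 0.932 times their own resting values. RelA-dCterm and RelA-DB had 156 and 150 CPM, 0.314 and 0.345 times theirs. The TA2 mutants without TA1 thus stayed near rest, between the constructs in which Nrp2 was high and those in which it was low.

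Nrp1 (ENSMUSG00000025810.8, chr8:128359073-128505462, plus strand), the neuropilin of Sema3a, was not called in any tested comparison, blocked or not. It had 341 to 498 CPM at rest. In the 8 h libraries it had 369 and 403 CPM in RelA-WT, 340.1 and 384 in RelA-dTA1, and 652 and 627 in EV. The EV libraries lay above all the others at 8 h. In RelA-dTAD the sets went opposite ways, from 341 to 545 CPM in set 1 and from 440.1 to 415 in set 2, and the change was 0.31 ± 0.24 (adjusted p = 0.312). In set 1, RelA-DB reached 555 CPM and RelA-dCterm 614. The 5 TA2 mutants of set 2 had 373 to 412 CPM.

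Plxnc1 (ENSMUSG00000074785.4, chr10:94790866-94944578, minus strand), the receptor gene for the Sema7a product, fell in each of the 3 tested constructs and was lower at 8 h in all 11. It had 93.5 to 156 CPM in the 15 resting libraries and 31.5 to 64.8 at 8 h, so that no 8 h library reached a resting one. At 8 h the values were 46.9 and 53.6 CPM in RelA-WT, 38.4 and 61.0 in RelA-dTA1, 31.6 and 52.8 in RelA-dTAD, and 36.5 and 39.3 in EV, with much overlap between constructs. It fell by 1.12 ± 0.20 in RelA-WT (adjusted p = 1.18e-04), by 1.47 ± 0.19 in RelA-dTA1 (adjusted p = 2.38e-06) and by 1.36 ± 0.20 in RelA-dTAD (adjusted p = 3.97e-06). The responses of RelA-dTAD and RelA-dTA1 differed by 0.11 ± 0.27 (adjusted p = 0.935). At 3 h the change was −0.40 in RelA-WT (adjusted p = 0.177; blocked, adjusted p = 0.0157) and −0.44 in RelA-dTA1 (adjusted p = 0.135; blocked, adjusted p = 0.00595).

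Unc5b (ENSMUSG00000020099.7, chr10:60762610-60831581, minus strand), a netrin receptor gene, was higher in set 2 than in set 1 in every replicated group. It had 83.6 to 138 CPM at rest and 52.6 to 117 at 8 h, and within each set the 8 h library was the lower one in all 4 replicated constructs. The change at 8 h was −0.36 ± 0.28 in RelA-WT (adjusted p = 0.368; blocked, −0.37, adjusted p = 0.00180). It was −0.58 ± 0.28 in RelA-dTA1 (adjusted p = 0.112; blocked, −0.59, adjusted p = 2.47e-06) and −0.44 ± 0.28 in RelA-dTAD (adjusted p = 0.201; blocked, −0.44, adjusted p = 1.16e-04). At 3 h only the blocked test called it, in RelA-dTA1 (−0.30, adjusted p = 0.0115), in RelA-dTAD (−0.29, adjusted p = 0.0304) and in the response of RelA-dTAD against RelA-WT (−0.46, adjusted p = 0.0186). Levels of different genes were compared per exon length, as RPKM, at rest in RelA-WT (mean ± SD, n = 2). The order from the lowest was Sema7a (2.23 ± 0.694), Ntn4 (3.43 ± 0.166), Sema3e (3.57 ± 0.651), Ntn1 (8.72 ± 0.268), Sema3a (8.99 ± 0.149), Plxnc1 (14.0 ± 0.57), Unc5b (17.7 ± 2.71), Sema3c (24.9 ± 6.66), Nrp2 (33.8 ± 4.76) and Nrp1 (70.5 ± 11.4). Ntn4 and Sema3e, Ntn1 and Sema3a, Unc5b and Sema3c, and Sema3c and Nrp2 did not part beyond their summed SDs. At 8 h in RelA-dTAD, Sema7a stood at 30.6 RPKM, above Nrp2 at 22.3.

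Counted together, the 10 genes were first called at 3 h. At 0.5 and 1 h, edgeR's quasi-likelihood test called 0 of the 8 genes testable in RelA-WT and 0 of the 10 in RelA-dTA1 and in RelA-dTAD, with 0 at an unadjusted p under 0.05 and 0 by DESeq2. Over all genes the same tests called 0.812% and 3.24% in RelA-WT, 0.629% and 1.62% in RelA-dTA1, and 0.439% and 0.549% in RelA-dTAD. At 3 h it called 1 of 8 in RelA-WT (Nrp2; 16.3% of all genes; 3 with the block), 2 of 10 in RelA-dTA1 (Ntn1 and Nrp2; 14.4%; 4 with the block) and 0 of 10 in RelA-dTAD (2.91%; 1 at an unadjusted p under 0.05, 0 by DESeq2, and 1 with the block). At 8 h it called 3 of 8 in RelA-WT (27.4% of all genes), 5 of 10 in RelA-dTA1 (34.6%) and 6 of 10 in RelA-dTAD (46.9%), and with the block 6 of 8, 9 of 10 and 9 of 10. The genes' median change at 8 h was −0.23 over the 8 in RelA-WT, and 0.02 in RelA-dTA1 and 0.37 in RelA-dTAD over the 10. Medians over all genes were −0.03, −0.02 and −0.02. The RelA-WT median leaves out Ntn1 and Sema7a, which those of RelA-dTA1 and RelA-dTAD include, so it is not compared with them. These counts include genes of both directions. Those of RelA-dTA1 and RelA-dTAD also include Ntn1 and Sema7a, which led the choice of genes, among the genes tested. The shares over all genes are those of the unblocked test. The blocked counts have no such share beside them and are not read as an excess.

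**Figure D3:**
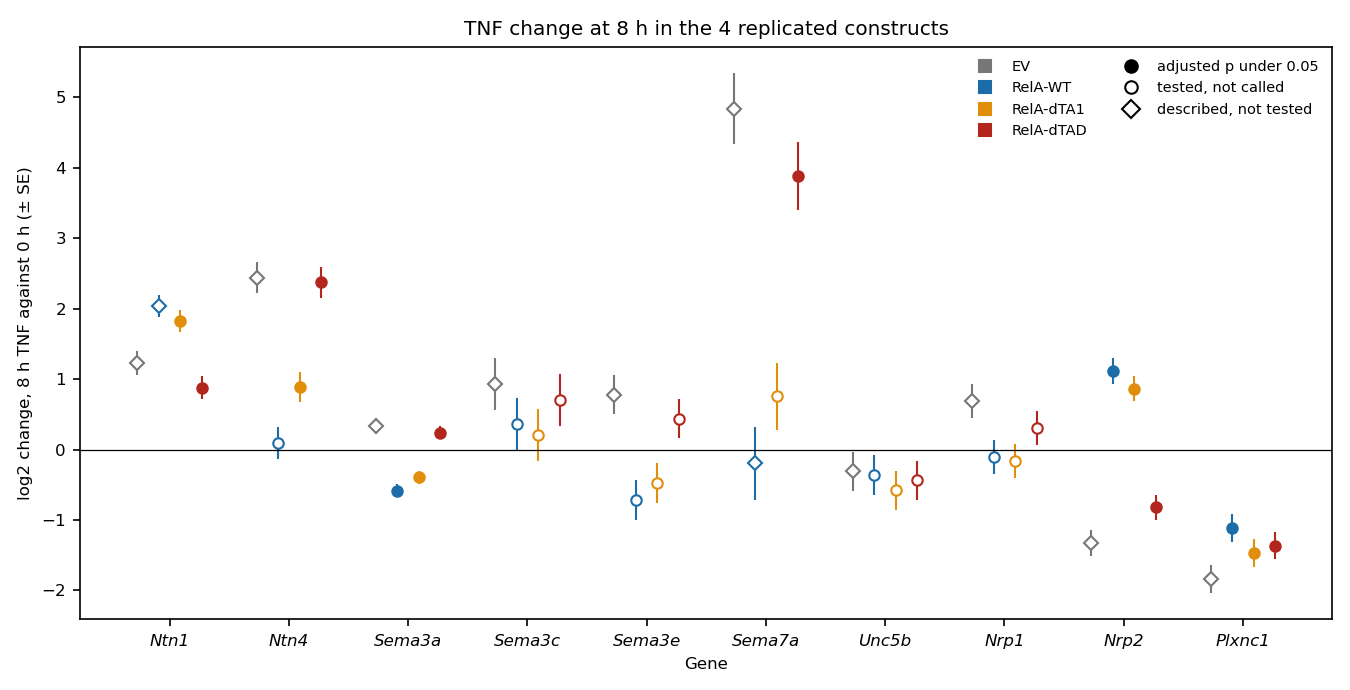
Change between 0 and 8 h of TNF (vertical axis, log2, with SE bars) for each of the 10 genes (horizontal axis) in RelA-WT, RelA-dTA1, RelA-dTAD and EV. Filled circles passed an adjusted p of 0.05, open circles were tested and did not, and diamonds are values given as a description. Nrp2 lies above 0 in RelA-WT (1.11) and RelA-dTA1 (0.87) and below it in RelA-dTAD (−0.82) and EV (−1.33).

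The constructs were then compared for the size of the TNF response itself. RelA-dTAD and RelA-dTA1 differed at 8 h for 5 of the 10 genes (Ntn1, Ntn4, Sema7a, Sema3a and Nrp2), where 5.94% of all genes were called. DESeq2 called 5 and the blocked test 7. The 5 include Ntn1 and Sema7a, which led the choice of genes, so this count is not independent of the choice. It is not read as an excess over that share. At 3 h they differed for 0 of 10 (1.46% of all genes; 2 at an unadjusted p under 0.05, Ntn1 and Nrp2, 0 by DESeq2, and 1 with the block, Nrp2). RelA-dTAD and RelA-WT differed for 1 of 8 at 3 h (Nrp2; 3.1% of all genes; 1 by DESeq2 and 2 with the block) and for 3 of 8 at 8 h (Ntn4, Sema3a and Nrp2; 12.2% of all genes; 4 by DESeq2 and 5 with the block). RelA-dTA1 and RelA-WT, a comparison added after the values were seen, differed for 0 of 8 at 8 h, where 0% of all genes were called, with 1 of the 8 at an unadjusted p under 0.05 (Ntn4, 0.80 ± 0.31) and 0 by DESeq2. At 0.5 and 1 h each of these 3 comparisons called 0 of the genes, as did that of RelA-dTA1 with RelA-WT at 3 h, with 0 at an unadjusted p under 0.05 and 0 by DESeq2. Over all genes 0.022% and 0.0951% were called for RelA-dTAD against RelA-dTA1 at 0.5 and 1 h, 0.0805% and 0.6% for RelA-dTAD against RelA-WT, and 0.0146% and 0% for RelA-dTA1 against RelA-WT. At rest RelA-dTAD and RelA-WT differed for 0 of 8 (0.0293% of all genes) and RelA-dTA1 and RelA-WT for 0 of 8 (0% of all genes), again with 0 at an unadjusted p under 0.05 and 0 by DESeq2. The comparisons with RelA-WT and with RelA-dTA1 share the RelA-dTAD libraries. Here too the shares over all genes are those of the unblocked test, and the blocked counts have none beside them.

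**Figure D4:**
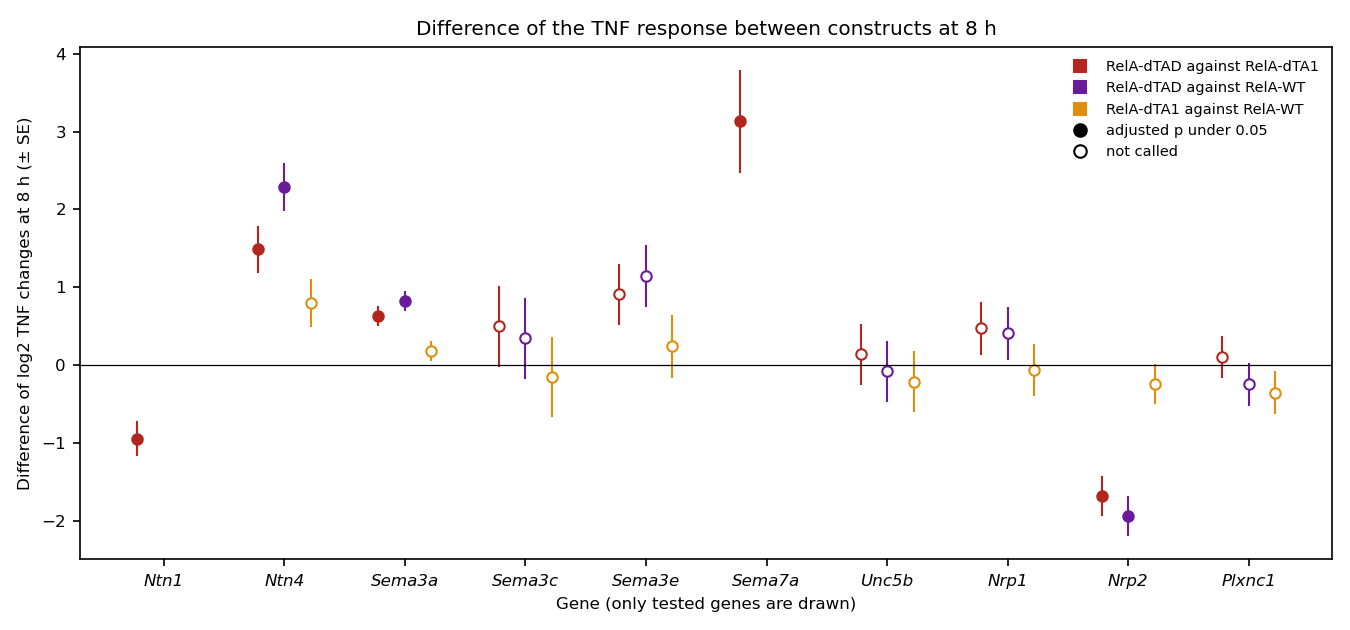
Difference between 2 constructs in the log2 TNF change at 8 h (vertical axis, with SE bars) for the tested genes (horizontal axis). Filled circles passed an adjusted p of 0.05. Sema7a (3.13), Ntn4 (1.49) and Sema3a (0.63) lie above 0 and Ntn1 (−0.94) and Nrp2 (−1.69) below it for RelA-dTAD against RelA-dTA1, and no point of RelA-dTA1 against RelA-WT is filled.

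Across the 20 groups of replicated construct and time, the levels of some of the genes ran together. Pearson's r of group mean log2 levels was 0.938 for Ntn4 and Sema7a (Spearman's rho 0.332), 0.915 for Sema7a and Sema3c (rho 0.586), and 0.885 for Sema3a and Sema3e (rho 0.798). It was −0.892 for Sema3e and Nrp2 (rho −0.711). These values are a description over 20 groups that come from the same 40 libraries. Over all genes tested, the 5 whose levels were most like those of Ntn1 were Mmp9 (a matrix protease, r 0.963), Madcam1 (0.950), Acod1 (0.949), Ecscr (0.941) and Ccl9 (a chemokine, 0.939), with rho from 0.854 to 0.875. Mmp9 ranked 1 in each set taken alone, while Ecscr ranked 23 in set 1 and 2 in set 2. Mmp9 went from 3.63 to 28.5 CPM in RelA-WT and from 1.81 to 5.48 CPM in RelA-dTAD between 0 and 8 h. Those most like Sema7a were Wwc1 (r 0.984), Nes (nestin, an intermediate filament, 0.975), Smurf2 (a ubiquitin ligase, 0.973), Adcyap1r1 (0.971) and Ttc9 (0.970), with a lower rho of 0.570 to 0.716. Their ranks differed between sets: Wwc1 ranked 1 in set 1 and 65 in set 2, Smurf2 23 and 1, and Nes 6 and 3. Nes went from 39.8 to 438 CPM in RelA-dTAD and from 41.3 to 54.1 CPM in RelA-WT.

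The other genes of these pathways were read from 9 lists of 99 genes (netrins, their receptors, class 3 and membrane semaphorins, neuropilins and plexins, signal transducers, slits and robos, ephrins and Eph receptors, and the RGM family), of which 88 passed the filter, the 10 above included. At 8 h, of the 78 that are not among the 10, 10 were called higher and 20 lower in RelA-WT, 10 and 19 in RelA-dTA1, and 14 and 25 in RelA-dTAD. With upper quartile scaling, which moves the median of all genes by −0.10, −0.12 and −0.17 (log2) in these 3 constructs, the counts were 4 and 24, 6 and 28, and 12 and 32. Over all genes, 15.8% were called higher and 11.6% lower in RelA-WT, 19.4% and 15.3% in RelA-dTA1, and 24.4% and 22.5% in RelA-dTAD. The higher to lower split over all genes was 2161 to 1582, 2648 to 2086 and 3333 to 3075, and with upper quartile scaling 1647 to 2333, 1971 to 3030 and 2495 to 4279. Of the 78, 4 were called higher in all 3 constructs (Rnd1, Fyn, Itgb1 and Slit2), where 10.8% of all genes were, 14 were lower in all 3, where 8.07% of all genes were, and Efnb2 was called in different directions, these 5 named after their values were seen.

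Among netrin receptors, 6 of 7 passed the filter, and Dcc did not. Neo1, which encodes neogenin, changed by −0.50, −0.52 and −0.60 in RelA-WT, RelA-dTA1 and RelA-dTAD (adjusted p = 2.35e-05, 8.96e-06 and 7.25e-07). Unc5c rose by 0.52 ± 0.16 in RelA-WT (adjusted p = 0.0149) and fell by 0.73 ± 0.16 in RelA-dTAD (adjusted p = 5.55e-04), and its response in RelA-dTAD differed from that in RelA-dTA1 by −0.88 ± 0.22 (adjusted p = 0.0174). Of the 7 class 3 semaphorin genes, Sema3d and Sema3f fell in all 3 constructs, Sema3f with changes of −0.74, −0.68 and −0.40 (adjusted p = 1.14e-05, 2.17e-05 and 0.00284). The list's median change was −0.71 in RelA-WT, −0.47 in RelA-dTA1 and −0.19 in RelA-dTAD. That list includes Sema3a, Sema3c and Sema3e, described above, so its median is not a separate result. Of 13 membrane semaphorin genes, Sema7a included, 2 were called higher and 4 lower in each of the 3 constructs. Sema7a is among those called higher in RelA-dTAD, and its change in RelA-WT is a description only. Over all genes, 15.8%, 19.4% and 24.4% were called higher in RelA-WT, RelA-dTA1 and RelA-dTAD, and 11.6%, 15.3% and 22.5% lower. Sema6c changed by −1.88, −2.21 and −2.36 (adjusted p = 0.00253, 2.50e-04 and 1.07e-04). Sema5a fell in all 3 as well, with changes of −1.46, −1.59 and −0.94 (adjusted p = 0.00182, 6.01e-04 and 0.0197).

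Among 10 tested neuropilin and plexin genes, Plxnb1 changed by −0.90, −1.04 and −0.98 (adjusted p = 5.50e-05, 5.36e-06 and 6.57e-06). Among 21 signal transducer genes, Mical2, an actin-oxidising enzyme of plexin signalling, rose by 2.01 ± 0.15 in RelA-dTAD (adjusted p = 1.89e-10), with a response that differed from that in RelA-dTA1 by 1.74 ± 0.21 (adjusted p = 1.01e-05). Among slits and robos, Slit2 rose by 0.83, 0.93 and 1.29 (adjusted p = 7.65e-05, 1.49e-05 and 7.04e-08). Robo2, a receptor for slits, rose by 0.64 ± 0.12 in RelA-WT (adjusted p = 3.19e-04) and fell by 0.74 ± 0.13 in RelA-dTAD (adjusted p = 3.65e-05), with responses that differed by −1.39 ± 0.18 (adjusted p = 7.76e-06). Ephrin and Eph receptor genes had a median change of −0.59, −0.68 and −0.87. Ephb3 changed by −0.85, −1.06 and −1.51 (adjusted p = 9.05e-06, 2.97e-07 and 7.96e-10), while Epha2 rose by 3.00 ± 0.35 in RelA-dTAD (adjusted p = 1.54e-07), with a response that differed from that in RelA-dTA1 by 1.93 ± 0.47 (adjusted p = 0.0132).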

How the data were processed

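Polyadenylated RNA of 75 libraries was measured by sequencing. The authors deposited raw read counts for each gene. They used cutadapt 1.9.1, STAR, featureCounts 1.5.0 and mm10, per the submitters' processing notes, which also name DESeq2. Whether counting used strand is not given in the sources used here, so overlapping and antisense genes are uncertain. All sample columns were used. From the counts, CPM and RPKM (per exon length in the deposited table) were computed with TMM scaling over 75 libraries in edgeR 4.0.16 (R 4.3.3), and log2 levels with a prior count of 2. Genes that passed filterByExpr (13665) were fitted over the 40 libraries of the 4 replicated constructs with 1 mean per construct and time, and tested with edgeR's robust quasi-likelihood test (20 residual degrees of freedom, common dispersion 0.0224) and p adjusted by Benjamini-Hochberg over the 13665 genes, with 0.05 as the threshold. The fit was tested on simulated data. Single-library constructs were compared with RelA-WT of the same set as ratios. Coordinates are mm10 positions from the reference annotation and promoter windows from RefSeq.

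The labels give the replicate number as the number of the deposited set. In 190 pairs of groups, the correlation across genes between how far equally numbered libraries lay from their group mean was r = 0.353 to 0.662 (median 0.519), so the numbers pair the libraries. Blocked values come from a fit with the set as a block. The main fit, its shares over all genes and the fits without a replicate leave this pairing out. A gene not called in them is not thereby shown to be unchanged. Alternatives were RLE and upper quartile scaling, no filter, the block, all 75 libraries in the fit, DESeq2 1.42.0, CPM without TMM and leaving out each replicate. The 10 genes and the lists were chosen with earlier results on these data known. Named were the 10 genes, at most the 4 list genes with the largest change per list and comparison among those called, Rela, and the 5 genes most like Ntn1 and Sema7a.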

Additional observations from a re-analysis of the deposited data

Results flagged for a closer look

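The TNF response at 8 h differed between RelA-dTAD and RelA-dTA1, by edgeR's quasi-likelihood test of the difference itself, for 5 genes. Of these, Ntn1 and Sema7a led the choice of genes. The difference (log2, SE) was −0.94 ± 0.22 for Ntn1 (adjusted p = 0.0106), 1.49 ± 0.30 for Ntn4 (adjusted p = 0.00308), 3.13 ± 0.66 for Sema7a (adjusted p = 0.00398), 0.63 ± 0.13 for Sema3a (adjusted p = 0.00263) and −1.69 ± 0.26 for Nrp2 (adjusted p = 1.80e-04). Between RelA-dTAD and RelA-WT the response at 8 h differed by 2.28 ± 0.31 for Ntn4 (adjusted p = 1.76e-05), 0.82 ± 0.13 for Sema3a (adjusted p = 9.61e-05) and −1.94 ± 0.26 for Nrp2 (adjusted p = 1.55e-05). At 3 h it differed by −0.98 ± 0.26 for Nrp2 (adjusted p = 0.0326). With a replicate left out, as given above, the calls against RelA-dTA1 for Ntn1, Ntn4, Sema7a and Sema3a were lost in some fits. That for Nrp2 at 3 h was lost in each such fit, while both calls for Nrp2 at 8 h held. Groups of 2 libraries are too small to tell which library is the outlying one.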

How the results depend on the processing

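Over the alternatives for single genes, 465 of the values kept their direction and their side of the threshold, 27 lost a call, 27 gained one and 9 changed sign, none of which was a call. The signs that changed were those of Ntn4 in RelA-WT at 8 h with upper quartile scaling (−0.0103) and, with 1 replicate left out, of changes at 8 h whose range is given here. Nrp1 ranged from −0.202 to 0.0294 in RelA-WT and from −0.0784 to 0.679 in RelA-dTAD. Of response differences, RelA-dTAD against RelA-dTA1 ranged from −0.0545 to 0.266 for Unc5b and from −0.115 to 0.418 for Plxnc1, RelA-dTAD against RelA-WT from −0.243 to 0.0101 for Unc5b, and RelA-dTA1 against RelA-WT from −0.196 to 0.0311 for Nrp1.

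The replicate block raised the number of the genes called at 3 h from 1 to 3 in RelA-WT, from 2 to 4 in RelA-dTA1 and from 0 to 1 in RelA-dTAD. At 8 h it raised it from 3 to 6 in RelA-WT, from 5 to 9 in RelA-dTA1 and from 6 to 9 in RelA-dTAD. For response differences of RelA-dTAD against RelA-dTA1 the block moved it from 0 to 1 at 3 h and from 5 to 7 at 8 h. Against RelA-WT it moved from 1 to 2 at 3 h and from 3 to 5 at 8 h. Each call the block changed stands beside its gene above or is Sema3a in RelA-WT at 3 h (−0.21, adjusted p = 0.0432 with the block), and the block changed no other. With the block, the other list genes called at 8 h were 19 higher and 34 lower in RelA-WT, 16 and 38 in RelA-dTA1, and 38 lower in RelA-dTAD. Smaller moves of these list counts, and of the counts in the fits below, are not listed. With no filter on low counts the genes called were 2 in RelA-WT at 3 h, 6 at 8 h, 8 in RelA-dTA1 at 8 h and 1 for RelA-dTAD against RelA-dTA1 at 3 h. With upper quartile scaling they were 2 in RelA-WT at 3 h, and other list genes called higher at 8 h were 4 in RelA-WT and 6 in RelA-dTA1. The cause was not tested. Except for upper quartile scaling at 8 h, these counts and those with 1 replicate left out have no share over all genes beside them. They show how calls move with the fit and are not read as results about these genes.

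Leaving out 1 replicate gave 0 to 2 called genes in RelA-WT at 3 h, 1 in RelA-dTA1 at 3 h, 3 in RelA-dTA1 at 8 h, 0 to 1 at rest for RelA-dTAD against RelA-dTA1, 3 to 4 for their responses at 8 h, and 0 to 1 for RelA-dTAD against RelA-WT at 3 h. Other list genes then called were 3 to 4 higher and 7 to 12 lower in RelA-WT, 4 to 6 and 11 in RelA-dTA1, and 8 to 10 higher and 19 lower in RelA-dTAD; the lone library left is assumed to vary like the other groups. Within set 1 and set 2, r was 0.952 and 0.951 for Ntn1 with Mmp9, and 0.974 and 0.948 for Sema7a with Wwc1. Without TMM the ratio of Nrp2 to RelA-WT was 0.459 in RelA-TA2_CI-dTA1, 1.01 in RelA-TA2_CI_S467A and 0.498 in RelA-TA2_CI_S467A-dTA1. Depth limits Sema7a at rest, where set 1 libraries held as few as 16 of its reads.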
